A study of Mus musculus with 23 samples.

Results

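In serum-starved primary mouse embryonic fibroblasts 2 kinds of RNA were compared: RNA made during 2 h of labelling, and the RNA the cells held in all. The labels do not say what a replicate number shares between the kinds, and arrays were not paired. The comparison uses 7 of the 23 arrays of the study, chosen by their titles: 4 arrays of newly transcribed RNA and 3 of amplified total RNA, all from starved cultures. The cells came from embryos of the stage e14.5, and the labels give every group the background C57/BLACK6 with the genotype ATF1 -/+. They were starved for 48 h in 1% serum and then kept for 2 h in 1% serum with 200 µM 4-thiouridine and tritiated cytidine. The serum treated cultures, which enter only where stated, had 10% serum during those 2 h. Total RNA that the titles do not call amplified was measured on 4 further starved arrays, and is given here as levels only.

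4-thiouridine resembles uridine closely enough for RNA polymerases to use it, which leaves a sulphur atom in transcripts made during the labelling. That sulphur was used to hold new RNA on an organomercurial matrix, from which 2-mercaptoethanol released it, per the labels' protocols. The level of an mRNA in total RNA depends on how fast it is made and how long it lasts. A short-lived mRNA is therefore a larger part of new RNA than of total RNA, and a long-lived one a smaller part. Because arrays are scaled to each other, values are shares of each kind of RNA and not amounts per cell. Fewer cells of a type and less RNA per cell cannot be told apart in such bulk samples.

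Levels are log2(quantile-normalized signal + 16), on which a signal of 0 stands at 4, and differences are newly transcribed minus amplified total RNA, so that a positive value is a larger share among new RNA. They understate the change of dim probe sets. The raw array medians were 28.5 to 72.3 for newly transcribed RNA and 7.4, 46.25 and 40.5 for amplified total RNA arrays 1 to 3. Amplified array 1 stood apart, with 57.3% of its values below a signal of 10. Whole profiles of the 15 newly transcribed and amplified arrays, treated ones included, were cut into 2 clusters, a number set in advance. The clusters crossed the kinds of RNA. Among starved arrays, newly transcribed arrays 1 and 4 fell with amplified arrays 1 and 3. Newly transcribed arrays 2 and 3 fell with amplified array 2. The 3' probe set of the GAPDH control transcript stood above its 5' probe set by 1.73 to 2.84 in newly transcribed RNA and 1.23 to 2.09 in amplified total RNA. For the actin control the ranges were 2.21 to 2.90 and 1.94 to 2.53. On the starved arrays of unamplified total RNA they were -0.31 to -0.07 for GAPDH and 0.15 to 0.43 for actin. Levels set beside unamplified total RNA thus come from arrays that differ in this measure. The part of these array differences in the results was not tested, except where values without an array or within a cluster are given.

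Of 12422 probe sets, 715 (5.76%) differed between newly transcribed and amplified total RNA at limma's adjusted p below 0.05. In 301 (2.42%) the share was higher among new RNA and in 414 (3.33%) it was lower. Counted as genes by their brightest probe set, 250 of 8251 (3.03%) were higher and 305 (3.7%) lower. The higher probe sets had a median difference of 1.30 and reached 2.64, and the lower ones had a median of -1.55 and reached -3.44. The 4 new and 3 amplified arrays did not overlap in 710 of the 715, against 16.6% of all probe sets. Within the first cluster the difference kept its sign in 301 of 301 higher and 414 of 414 lower probe sets, and so it did within the second, where amplified total RNA has 1 array. These probe sets were called on the same arrays and their groups hardly overlap, so this sign was largely fixed by the choice and is no sign of stability.

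The fit took its estimate of spread from 15 arrays, the treated ones of both kinds included. Deviations of same-numbered starved and treated arrays from their group means correlated at 0.70 to 0.80 for newly transcribed RNA, and at 0.69, 0.76 and -0.47 for amplified arrays 1, 2 and 3. With the 7 starved arrays alone 394 probe sets were called, 145 higher and 249 lower, and 374 of them were among the 715. The count was 345 without amplified array 2 and 462 without amplified array 1. It was 422 without newly transcribed array 3 and 460 without newly transcribed array 2. Scaling arrays to 1 common median in place of quantile normalization gave 339 higher and 318 lower. With the values as deposited limma called 0, with 1848 at an unadjusted p below 0.05.

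The called probe sets lay mostly in the brighter part of the array. Of the 3106 probe sets with the lowest mean level, 0.0322% were higher and 0.0322% lower, and of the 3106 with the highest, 5.09% and 7.92%. The median level of the 301 higher probe sets was 8.21 in newly transcribed RNA, 7.0 in amplified and 6.91 in unamplified total RNA. For the 414 lower probe sets the medians were 7.10, 8.72 and 8.40. In both sets the level in unamplified total RNA thus stood nearer to amplified total RNA than to newly transcribed RNA.

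**Figure D1:**
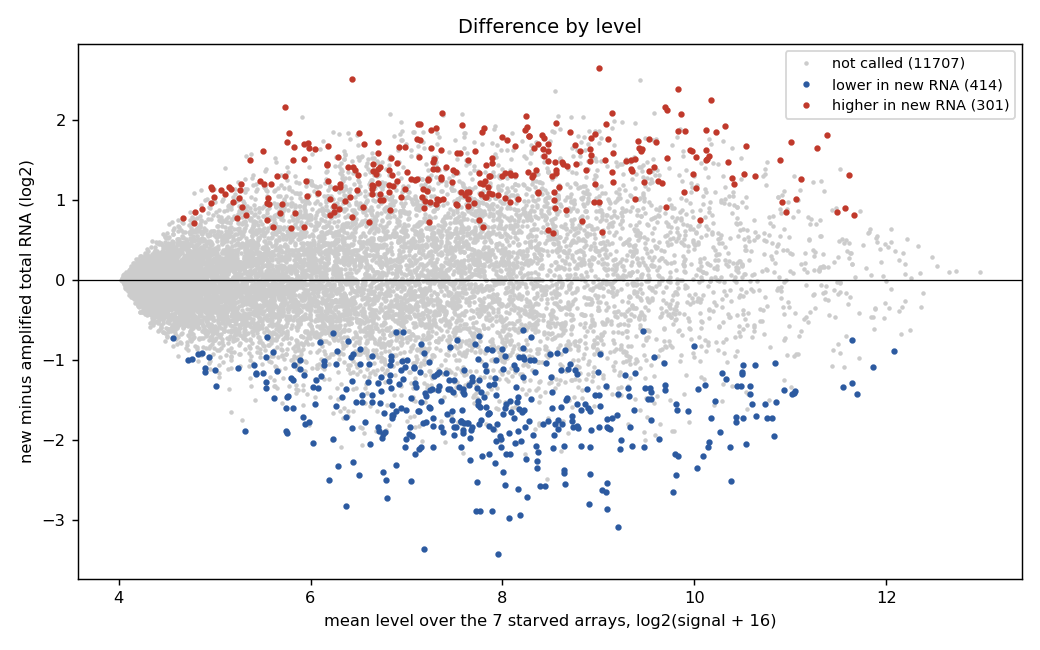
Difference between newly transcribed and amplified total RNA in starved cells (vertical axis, log2) against the mean level over the 7 arrays (horizontal axis, log2(signal + 16)), 1 point per probe set. Red points are the 301 called higher and blue points the 414 called lower; both lie mainly to the right of the dim end.

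The genes highest among new RNA include transcription factors, kinases and nuclear proteins. Tiparp, an ADP-ribosyltransferase induced by the aryl hydrocarbon receptor, was at 10.97, 9.39, 10.37 and 9.82 on the 4 newly transcribed arrays, 6.84, 6.88 and 8.77 on the amplified ones and 7.15 to 8.57 in unamplified total RNA. The difference was 2.64 ± 0.57 (SE; limma's adjusted p = 0.0162), and it was not called without amplified array 1 or amplified array 2. All new arrays were above all total RNA arrays of both kinds.

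Klf2, a Krüppel-like transcription factor, was at 6.68, 7.52, 8.10 and 7.72 in newly transcribed and 4.33, 5.44 and 5.23 in amplified total RNA, and at 4.33 to 5.13 in unamplified total RNA. Its difference was 2.50 ± 0.43 (SE; adjusted p = 0.00459). In total RNA of either kind it lay near the floor of 4, while all new arrays were clear of it. Plk2, a Polo-like kinase, was at 11.54, 11.21, 11.30 and 10.47 against 8.44, 9.66 and 8.57, a difference of 2.24 ± 0.43 (SE; adjusted p = 0.00835). Unlike Klf2, Plk2 was bright in every array, and its unamplified total RNA arrays (9.80 to 11.14) reached above its lowest new array.

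Noct, the rhythmically expressed deadenylase-related protein nocturnin, was among the most even: 10.48, 10.74, 10.92 and 10.84 against 8.87, 8.16 and 8.98. Its difference was 2.08 ± 0.25 (SE; adjusted p = 0.000939). A second probe set of Noct was also higher (1.49), and the third, at -0.51, was not called. Taf1d, a subunit of the factor that starts ribosomal RNA transcription, was at 11.46, 10.51, 10.67 and 10.75 against 9.38, 7.49 and 8.52, a difference of 2.38 ± 0.45 (SE; adjusted p = 0.00778). Its unamplified total RNA lay lower still, at 6.82 to 7.20, below every amplified array. Of its other probe sets one was higher (1.20) and one, at 1.79, was not called.

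The other 10 genes with the largest positive differences were Map3k8 (2.16), Tsr1 (2.15), Ppp1r15b (2.12), Camsap1 (2.08), Nup62 (2.08), Cxxc5 (2.04), Nfatc1 (1.95), Akap8 (1.94), Errfi1 (1.92) and Bhlhe40 (1.91). Map3k8 and Nfatc1 act in inflammatory and calcium signalling, Errfi1 inhibits the EGF receptor, and Ppp1r15b directs a phosphatase to the initiation factor eIF2. Tsr1 matures the small ribosomal subunit and Nup62 is a nuclear pore protein. Of these 15 genes, 7 stayed called whichever of the 7 arrays was left out. The others (Tiparp, Map3k8, Ppp1r15b, Camsap1, Nup62, Cxxc5, Nfatc1 and Errfi1) lost the call at least once, and Map3k8 and Ppp1r15b lost it each time. The 4 other probe sets of Akap8 (from -0.52 to 0.49) and the second of Map3k8 (-0.43) were not called.

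The genes lowest among new RNA include subunits of the respiratory chain, lysosomal enzymes and matrix proteins. Ggh, the lysosomal enzyme gamma-glutamyl hydrolase, was at 6.44, 5.54, 5.51 and 5.45 in newly transcribed and 9.0, 9.13 and 9.17 in amplified total RNA. Its difference was -3.36 ± 0.32 (SE; adjusted p = 0.000172). Unamplified total RNA of Ggh was at 6.21 to 7.77, below every amplified array, and its lowest array was below the highest new one. Prdx4, a peroxiredoxin of the endoplasmic reticulum, was at 7.17, 7.39, 7.14 and 7.66 against 9.68, 10.22 and 9.86, a difference of -2.58 ± 0.19 (SE; adjusted p = 4.4e-05). This was the smallest adjusted p of all probe sets, and unamplified total RNA was at 8.86 to 9.40.

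Ndufa3, an accessory subunit of respiratory complex I, was at 8.02, 7.61, 7.34 and 8.55 against 11.27, 10.97 and 10.69. The difference was -3.09 ± 0.27 (SE; adjusted p = 0.00012), and a second probe set was also lower (-1.56). Ogn, the matrix proteoglycan osteoglycin, was at 8.33, 7.84, 7.36 and 7.94 against 10.10, 10.51 and 11.58, a difference of -2.86 ± 0.35 (SE; adjusted p = 0.000988), with a second probe set at -2.65. For Ndufa3 and Ogn unamplified total RNA (10.00 to 10.39 and 10.27 to 12.18) lay above every new array.

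Cdkn1c, a cyclin-dependent kinase inhibitor, was at 7.36, 6.31, 6.67 and 8.03 against 9.57, 9.38 and 10.47, a difference of -2.71 ± 0.44 (SE; adjusted p = 0.00347). It was the only member of the growth arrest and p53 list below that was lower. The largest negative value, H3c14 (-3.44 ± 0.67, SE; adjusted p = 0.00914), belongs to a histone H3 gene whose family shares near-identical sequence, so its identity is uncertain; it was not called without amplified array 2. The other 9 were Apoe (-2.89), Uqcr11 (-2.84), Cpq (-2.73), Atp5mpl (-2.63), Elob (-2.58), Ergic3 (-2.57), Uqcrh (-2.56), Itm2a (-2.54) and Pcbd2 (-2.54). Of the 15, 11 stayed called whichever array was left out; Apoe, Elob, H3c14 and Itm2a did not. A second probe set of Apoe was at -0.23 and not called.

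**Figure D2:**
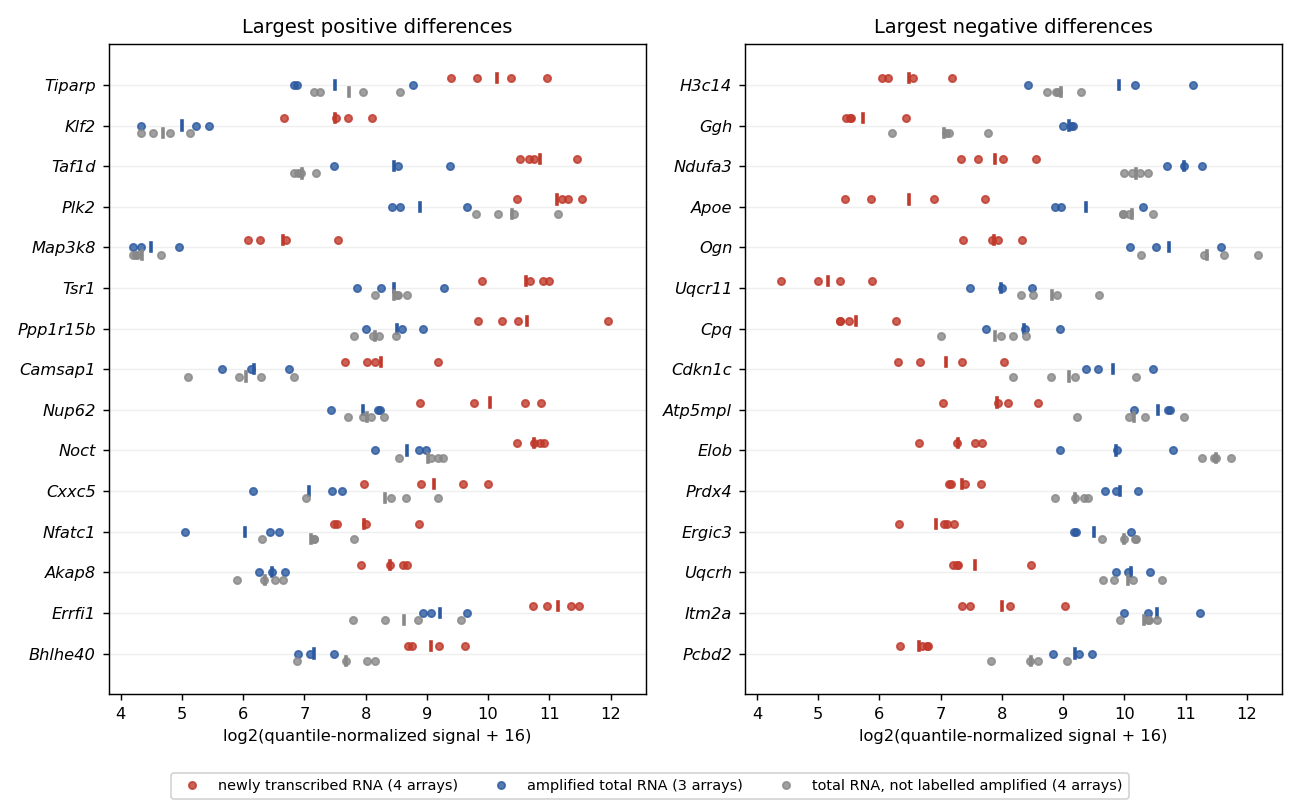
Levels of the 15 genes with the largest positive (left) and the 15 with the largest negative differences (right) on each starved array; horizontal axis log2(quantile-normalized signal + 16). Red points are newly transcribed RNA, blue amplified total RNA and grey unamplified total RNA, with short bars at the group means; by the rule that chose these genes, red and blue points do not overlap.

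Promoter sequence was set beside these groups for the genes that have an entry in RefSeq's promoter windows (GRCm38.p6), 203 of the 250 higher, 262 of the 305 lower and 6572 of the 8251 measured genes. The stretches shown are the 100 bases before the annotated start of 2 of the highest and 2 of the lowest genes, 5′ to 3′ in the direction of transcription. Capitals mark matches, on either strand, to the motifs searched: the TATA box TATAAA, the CCAAT box CCAAT, the GC box GGGCGG, the ETS core CCGGAAG, the cyclic AMP response element (CRE) core TGACGTC and the E box CACGTG. The CRE is the site bound by the ATF1 family, the gene named in the genotype. The stretches are examples and do not stand for their groups. Of all stretches taken from among the 15 highest and 15 lowest genes, only that of Plk2 held TGACGTC. Those of Klf2, Tsr1, Errfi1, Apoe, Ogn and Pcbd2 held none of the motifs.
Tiparp: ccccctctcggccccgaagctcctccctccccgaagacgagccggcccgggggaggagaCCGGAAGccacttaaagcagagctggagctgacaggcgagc
Plk2: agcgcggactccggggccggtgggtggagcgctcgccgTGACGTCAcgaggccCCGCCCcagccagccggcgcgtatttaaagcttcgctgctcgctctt
Ndufa3: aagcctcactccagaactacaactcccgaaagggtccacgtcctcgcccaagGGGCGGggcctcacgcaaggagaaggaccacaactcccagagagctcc
Uqcrh: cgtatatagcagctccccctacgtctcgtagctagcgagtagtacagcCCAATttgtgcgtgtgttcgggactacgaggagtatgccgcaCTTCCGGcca

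These lie at chr3:65528347-65528446 on the + strand (Tiparp), chr13:110394944-110395043 on the + strand (Plk2), chr7:3617273-3617372 on the + strand (Ndufa3) and chr4:116075071-116075170 on the - strand (Uqcrh). Over the whole window of 300 bases, 5.42% of higher and 9.16% of lower genes held TATAAA, against 10.4% of all measured genes. GGGCGG was in 68.0% of higher, 61.5% of lower and 59.3% of all genes. CCGGAAG was in 19.7%, 20.2% and 15.7%, and CCAAT in 41.4%, 44.3% and 38.3%. TGACGTC was in 6.90%, 4.58% and 5.22%, and CACGTG in 14.3%, 10.7% and 9.95%. The windows of higher genes had a median GC content of 62% with 23 CpG, those of lower genes 59% with 18, and all measured genes 60% with 19. These shares are descriptions of the windows and carry no test.

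Gene lists were then read against the background of all 8251 genes, of which 3.03% were higher and 3.7% lower, with a median difference of 0.00; at an unadjusted p below 0.05, 901 were positive and 860 negative. Of the immediate early transcription factors, 24 were measured, 6 were higher and 0 lower, with a median of 1.31. At an unadjusted p below 0.05 there were 15 positive and 1 negative. The 6 were Klf2, Bhlhe40 (1.91), Jun (1.77), Atf3 (1.63), Nr4a1 (1.59) and Myc (1.41). Jun, a subunit of the AP-1 factor, was at 9.38, 9.58, 9.97 and 9.80 in newly transcribed and 7.96, 7.81 and 7.97 in amplified total RNA (1.77 ± 0.21, SE; adjusted p = 0.000859). Ier3, at 1.82 (adjusted p = 0.112), and Fos, at 1.35 (adjusted p = 0.249), were not called, although their arrays did not overlap. Myc lost its call without each of amplified arrays 1 and 3 and newly transcribed arrays 1, 2 and 3. Atf3, Nr4a1, Myc and Fos, and further members named below beyond the 4 with the largest differences in a list, were chosen after their values were seen.

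Of 24 feedback regulators of signalling 4 were higher and 0 lower (median 1.11; 12 positive and 0 negative at an unadjusted p below 0.05): Errfi1, Gadd45a (1.86), the phosphatase Dusp1 (1.75) and the inhibitory SMAD Smad7 (1.03). Gadd45b (2.09), Dusp6 (2.05) and Gadd45g (1.89) had more spread and were not called (adjusted p = 0.292, 0.234 and 0.214). With the 7 starved arrays alone 2 genes of the list were called. Of 28 cytokines and growth factors 6 were higher and 0 lower (median 0.87; 10 positive and 2 negative at an unadjusted p below 0.05). Ereg, the EGF receptor ligand epiregulin, was at 8.36, 7.79, 8.13 and 8.20 against 6.03, 6.21 and 6.45 (1.89 ± 0.19, SE; adjusted p = 0.0003), with a second, uncalled probe set at 0.21. The other 5 were Csf1 (1.67), Ccn2 (1.64), Ccl7 (1.53), Ccl2 (1.29) and Cxcl10 (0.96). Ccn1 (1.93), Cxcl1 (1.89) and Cxcl5 (1.68) were not called, and their groups overlapped. With the 7 starved arrays alone 2 of these cytokines and growth factors were called, and 3 without each of amplified arrays 1 and 2.

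Of 20 genes of the ID, SMAD, BMP and TGFB families 3 were higher and 0 lower (median 0.83), namely Tgif1 (1.36), Smad2 (1.23) and Smad7. Smad1 (1.76), Id1 (1.68), Smad6 (1.54) and Id3 (1.52) were not called. Of 15 NF-kappaB pathway genes 0 were called in either direction by limma (median 0.28) and 1 had an unadjusted p below 0.05; the largest was Relb, at 1.74 with overlapping groups. These are the brightest probe sets: a dimmer one of Traf6, a ubiquitin ligase of the pathway, was called higher (1.49 ± 0.29, SE; adjusted p = 0.00883). The brightest probe set of Traf6, at 1.496 with overlapping groups, was not called, nor was another dimmer one, at 1.25. Of 17 circadian genes 4 were higher and 0 lower (median 0.74): Bhlhe40, Per1 (1.70), Cry1 (1.46) and Csnk1d (1.21), of which Per1 and Cry1 are the repressors of the clock. Per1 was not called without amplified array 1, nor Cry1 without each of amplified arrays 1 and 2 and newly transcribed arrays 1 and 4, and 2 uncalled probe sets of Cry1 were at -0.21 and -0.10. Arntl, the activator of the clock, was at 1.51 and narrowly not called (adjusted p = 0.0566).

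Of 89 zinc finger genes named Zfp, most of them presumed transcription factors, 13 were higher (14.6%) and 0 lower, and 79 had a positive difference (median 0.74). At an unadjusted p below 0.05 there were 38 positive and 2 negative. Zfp639 was at 9.19, 8.85, 8.95 and 9.13 against 6.89, 7.42 and 7.86 (1.64 ± 0.22, SE; adjusted p = 0.00126). Zfp36l2, at 1.80, was also called and destabilises AU-rich mRNAs, while Zfp281 (1.86), Zfp36 (1.80) and Zfp62 (1.78) were not called. The count was 8 with the 7 starved arrays alone and 7 without amplified array 1. Of 24 regulators of mRNA decay 3 were higher and 0 lower (median 0.27): Noct, Zfp36l2 and the deadenylase Cnot8 (1.64). Zfp36l2 kept its call only when amplified array 3 was left out, and its other probe sets, at 0.47 and 1.04, were not called.

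Of 18 MYC network genes 3 were higher and 0 lower (median 0.64): Mlx (1.43), Myc and the nucleolar protein Nolc1 (1.29). Of these 1 was called with the 7 starved arrays alone, and 1 without each of amplified arrays 1 and 3 and newly transcribed arrays 1, 2 and 3. Of 44 signalling kinases 5 were higher and 0 lower (median 0.57): Plk2, Map3k8, Map3k3 (1.61), Mapk14 (1.42) and Map3k4 (1.08). The count of kinases was 3 with the 7 starved arrays alone, 2 without each of newly transcribed arrays 3 and 4, and 3 without each other array but newly transcribed array 1. Of 36 chromatin regulators 3 were higher (median 0.52): the Polycomb proteins Cbx2 (1.5) and Ezh2 (1.31) and the demethylase Kdm5b (1.37); a second probe set of Cbx2 was at -0.09, and 1 of the list was called with the 7 starved arrays alone. Of 45 homeobox factors 3 were higher (median 0.35), led by Hoxb6, which was at 6.30, 6.04, 6.46 and 5.97 against 4.37, 4.77 and 4.62 (1.61 ± 0.23, SE; adjusted p = 0.00168). In unamplified total RNA Hoxb6 was at 5.86 to 6.80, which overlaps the new arrays and lies above the amplified ones.

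Of 38 mesenchymal transcription factors 2 were higher (median 0.45; 10 positive and 0 negative at an unadjusted p below 0.05), Foxc2 (1.80) and Gli2 (1.15). Limma called 0 of them with the 7 starved arrays alone and without each of amplified array 2 and newly transcribed arrays 2 and 3, and 1 without each of amplified arrays 1 and 3. Of 25 ubiquitin ligases 2 were higher (median 0.45), Rnf4 (1.5) and Mdm2, the ligase of p53 (1.54 ± 0.22, SE; adjusted p = 0.00168). Of 25 growth arrest and p53 genes 3 were higher (median 0.74), Gadd45a, Pdk4 (1.72) and Mdm2, and 1 lower, Cdkn1c. The number higher was 1 without each of amplified arrays 1 and 2 and newly transcribed arrays 3 and 4. Of 51 splicing factors 3 were higher and 1 lower (median 0.40). The 3 were the kinases Clk4 (1.85), Clk3 (1.09) and Clk2 (1.07), which phosphorylate splicing factors, and the 1 was Snrpg (-1.79), a small core protein of the spliceosome. With the 7 starved arrays alone 1 was higher and 0 lower, as without amplified array 2. Without amplified array 1 the numbers were 2 and 0. Of 32 genes of G1 and S phase 2 were higher, Cdc6 (1.75) and Cdt1 (1.03), which license replication origins, and of 28 of G2 and mitosis 2, Aurka (1.32) and Nek2 (1.13). Both cell cycle lists fell to 0 calls by limma with the 7 starved arrays alone, and without each of amplified array 1 and newly transcribed arrays 2 and 3. The list of G2 and mitosis also had 0 without amplified array 2 or newly transcribed array 1. At an unadjusted p below 0.05, in the fit of 15 arrays, 4 genes of G1 and S phase were positive and 1 negative, and 7 and 0 of G2 and mitosis.

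Oxidative phosphorylation held the largest share of lower genes among the lists: 35 of 73 were lower (47.9%), 0 higher, and 66 had a negative difference, with a median of -1.32. At an unadjusted p below 0.05 there were 46 negative and 2 positive. The count was 31 with the 7 starved arrays alone, and 27 to 36 when each array was left out. These nuclear genes code for the inner membrane complexes that carry electrons to oxygen and make ATP. The median level of the list was 7.16 in newly transcribed, 8.74 in amplified and 8.96 in unamplified total RNA. None of its 12 genes with a mean level under 6 in amplified total RNA was called.

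The lower genes were spread over complex I, complex III, complex IV and the ATP synthase. Of 29 subunits of complex I 16 were lower, with a median of -1.35. Of its 4 measured catalytic core subunits coded in the nucleus 1 was lower, Ndufs3 (-1.13), and of its 25 accessory subunits 15, from Ndufa9 at -0.97 to Ndufa3. The medians of these groups were -0.77 and -1.78. The 2 assembly factors, which are not part of the finished complex, were at 0.32 (Ndufaf1) and 1.19 (Ndufaf4), and were not called. Of 4 subunits of complex II 0 were lower by limma and 0 had an unadjusted p below 0.05, from -1.01 (Sdhb) to 0.18 (Sdhd).

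Of 8 genes of complex III 4 were lower. They were the small subunits Uqcr11, Uqcrh, Uqcrq (-2.44) and Uqcr10 (-2.18), while the large core proteins Uqcrc1 (-0.76) and Uqcrc2 (-0.65) and the cytochrome Cyc1 (-0.08) were not called. Uqcrh was at 7.28, 7.20, 7.26 and 8.48 in newly transcribed and 10.42, 9.87 and 10.06 in amplified total RNA. Of 15 genes of complex IV 6 were lower, among them Cox7b (-2.30) and Cox5b (-1.96). Of 14 genes of the ATP synthase 9 were lower, and the most so were Atp5mpl, Atp5e (-2.51) and Atp5o (-2.43). Atp5a1, from the catalytic head of that enzyme, was at -0.15 and was not called. The core and accessory groups differ in their medians, but no test of that difference was made.

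**Figure D3:**
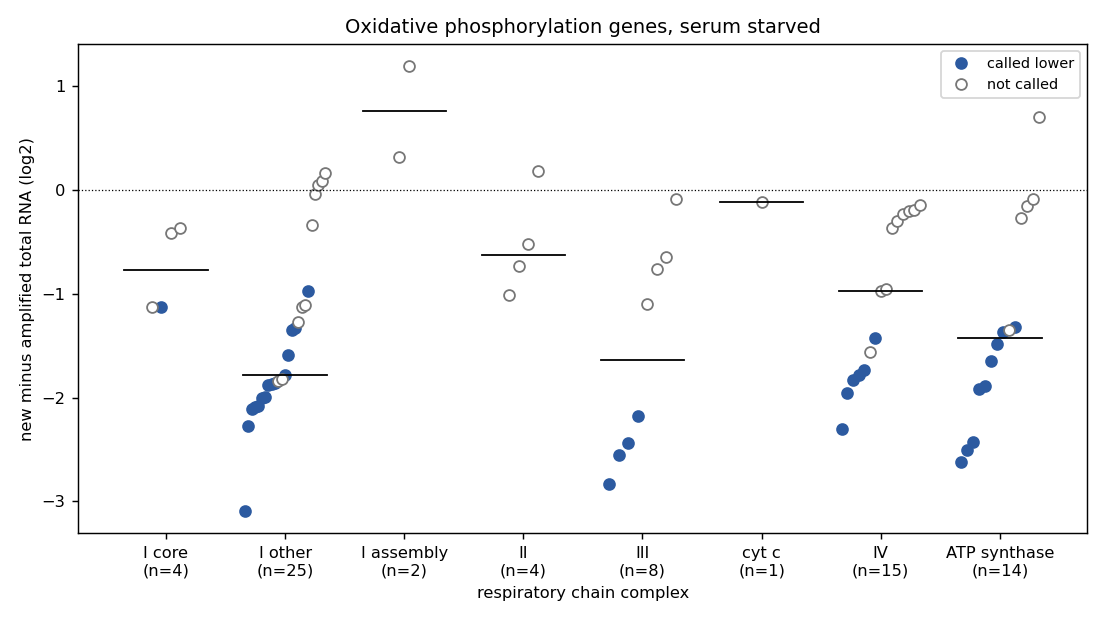
Difference between newly transcribed and amplified total RNA (vertical axis, log2) of the 73 oxidative phosphorylation genes in starved cells, by complex (horizontal axis, number of genes in brackets). Filled blue points are the 35 called lower, open points are not called and bars are medians; the accessory subunits of complex I, in the column called I other, have a median of -1.78.

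Ribosomal proteins were also low among new RNA. Of 36 cytosolic ones 7 were lower (19.4%), 0 higher and 3 positive, with a median of -0.75. Rpl37a was at 7.90, 8.27, 8.05 and 9.04 against 10.59, 10.70 and 10.02 (-2.12 ± 0.28, SE; adjusted p = 0.00124), and Rps10 (-1.91) and Rpl10a (-1.63) were called as well, while Rps7 (-1.80) was not. Many ribosomal protein genes have near-identical pseudogenes, so their probe sets are uncertain. The count was 3 with the 7 starved arrays alone, and 4 without each of amplified array 1 and newly transcribed arrays 1 and 4.

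Of 61 genes of the mitochondrial ribosome 9 were lower (14.8%) and 3 higher (4.92%, near the 3.03% of all genes), with a median of -0.53. A positive difference was seen in 13, and at an unadjusted p below 0.05 there were 23 negative and 5 positive. Mrpl23 (-2.20), Mrps21 (-2.04) and Mrpl52 (-1.81) were the lowest. Mrps2 was higher, at 8.43, 8.75, 8.72 and 8.56 against 7.01, 6.16 and 6.99 (1.89 ± 0.25, SE; adjusted p = 0.00124), as were Mrpl9 (1.30) and Mrpl44 (1.13). The number lower was 4 with the 7 starved arrays alone, 2 without amplified array 2, 3 without newly transcribed array 1, 4 without newly transcribed array 3 and 5 without each of amplified array 1 and newly transcribed array 2.

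Of 38 antioxidant and glutathione genes 7 were lower (18.4%) and 1 higher, with a median of -0.64. The lower ones included Prdx4, the glutathione transferases Gstk1 (-2.44) and Gsta4 (-2.04), and Gpx4 (-1.61), which reduces lipid peroxides. The higher one was Txnrd1, thioredoxin reductase, at 9.54, 9.77, 10.12 and 9.27 against 8.26, 8.47 and 8.62 (1.22 ± 0.25, SE; adjusted p = 0.0125). Sod1 (-1.95) was not called. The number lower was 4 with the 7 starved arrays alone, and 2 without amplified array 2.

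Of 42 matrix proteins and remodelling enzymes 7 were lower and 0 higher (16.7% lower, median -0.84). Besides Ogn they included the proteoglycan decorin (Dcn, -2.36) and Mfap4 (-1.85), while Fmod (-2.03) and Pcolce (-1.92) were not called. Dcn kept its call only when newly transcribed array 4 was left out. The count was 3 with the 7 starved arrays alone and 1 to 5 when each array was left out, 1 without amplified array 2. Of 31 collagens 3 were lower (median -0.42), among them Col3a1 (-1.43 ± 0.23, SE; adjusted p = 0.00327), whose 2 other probe sets were lower too, at -1.81 and -1.92. Of 35 genes of the endoplasmic reticulum and secretory path 4 were lower (median -0.56), Ergic3, Rpn2 (-2.0), Kdelr2 (-1.52) and Ddost (-1.46). Rpn2 and Ddost are subunits of the enzyme that adds sugars to new proteins.

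Of 37 lysosomal genes 4 were lower (10.8%) and 0 higher, with a median of -0.89. They were the cathepsins Ctsh (-2.28), Ctsl (-1.24) and Ctss (-1.07) and the peptidase Tpp1 (-1.56). Of the 19 macrophage markers measured 2 were lower, Adgre1 (-1.69) and Ctss, and 0 higher. A second probe set of Adgre1, at -0.05, was not called, and Adgre1 lost its call without amplified array 2. Ctss kept its call only when newly transcribed array 3 was left out. Summed signal of the macrophage list ran from 2864 to 8104 in newly transcribed and from 5742 to 16400 in amplified total RNA. Only 2 of its genes had a mean level under 5 in newly transcribed and 1 in amplified total RNA. Macrophage transcripts were therefore present in both kinds of RNA, and their part in the lysosomal values was not tested.

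The labelled cell type showed its markers: of 16 fibroblast markers 0 had a mean level under 5 in newly transcribed and 1 in amplified total RNA. Their summed signal was 10920 to 18200 in newly transcribed and 23210 to 24860 in amplified total RNA, ranges that do not overlap. Dcn, Col3a1 and Postn (-1.06) were lower and 0 higher. Of the 6 marker lists for endothelium, epithelium, skeletal muscle, neural cells, erythroid cells and adipocytes, no gene was called in either direction by limma, and from 0 to 2 genes a list had an unadjusted p below 0.05. Of the 12 epithelial markers 10 had a mean level under 5 in newly transcribed and 9 in amplified total RNA.

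Other housekeeping lists had 4 or fewer lower genes each, against 3.7% of all genes. Of 39 genes of the mitochondrial matrix 3 were lower (7.69%), Etfb (-1.84), Hspe1 (-1.41) and Idh2 (-1.40), and of 17 glycolytic genes 2 (11.8%), Hk1 (-1.89) and Ldhb (-1.67). Without each of amplified arrays 1 and 2 and newly transcribed arrays 1, 2 and 3 the glycolytic count was 1. Of 47 proteasome genes 4 were lower (8.51%), led by Psme1 (-1.97), and 1 higher. The number lower was 2 with the 7 starved arrays alone and without each of amplified array 2 and newly transcribed array 3. Of 24 tRNA synthetases 1 was lower, Fars2 (-1.09), and of 49 translation factors 1 was lower, Eif3k (-1.89), and 1 higher. Eif3k lost its call whichever array was left out, and Fars2 without each of amplified arrays 1 and 3 and newly transcribed arrays 1 and 4. Of 63 chaperones 3 were higher, including the heat shock co-chaperone Dnajb1 (1.80), and 3 lower, and limma called 0 of the list without amplified array 2. Of 40 actin cytoskeleton genes 1 was higher, Vcl (0.90).

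Of 21 genes of sterol and fatty acid synthesis 1 was higher (4.76%, near the 3.03% of all genes), Fdft1 (1.34). Of 28 interferon response genes 1 was higher (3.57%), Irf9 (0.97). There 2 were lower (7.14%, against 3.7% of all genes), Tapbp (-1.88) and B2m (-1.71), which both serve antigen presentation. Irf9 kept its call only when newly transcribed array 4 was left out, and Tapbp only when amplified array 1 was left out. Of 5 nuclear noncoding and host genes and 6 replication-dependent histone genes none was called by limma, and 1 and 0 had an unadjusted p below 0.05. The histone list does not hold H3c14, which was called lower (-3.44). Its median level was 4.35 in newly transcribed and 4.24 in amplified total RNA, near the floor of 4, so the list says little about histone genes. The medians of the proteasome, mitochondrial matrix, glycolysis, tRNA synthetase and actin lists, taken relative to that of all probe sets, changed sign between scalings. Those of all other lists named with a median kept theirs.

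**Figure D4:**
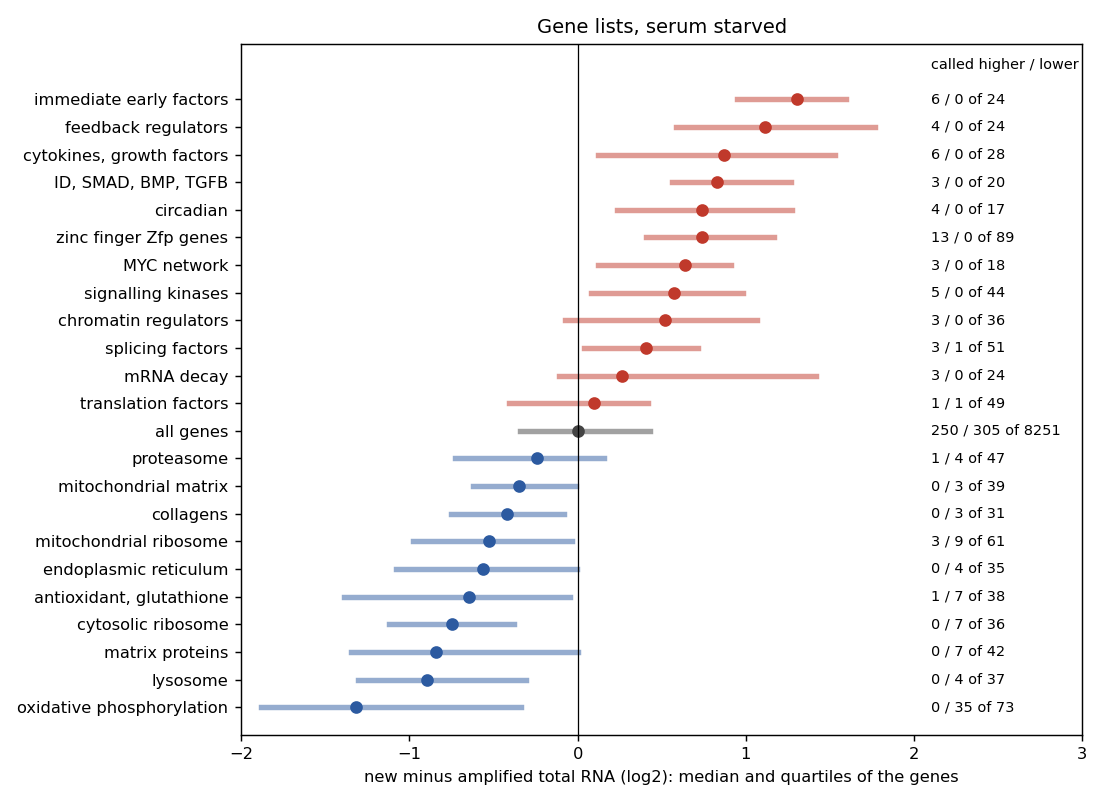
Median (point) and quartiles (bar) of the difference between newly transcribed and amplified total RNA (log2) over the measured genes of each list and over all genes, in starved cells; the numbers on the right count the genes called higher and lower. Immediate early factors have the highest median (1.31) and oxidative phosphorylation the lowest (-1.32).

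The same contrast in cells given 10% serum for the 2 h takes its group means from other arrays. Its spread comes from the same fit of 15 arrays, so calls in the 2 serum conditions are not independent. Most same-numbered starved and treated arrays also deviated together (6 of 7 pairs, all but amplified array 3). The treated contrast called 902 probe sets, 323 higher and 579 lower. Of the 301 higher in starved cells 300 were positive there, with a median of 1.05, and 194 were called. Of the 414 lower 412 were negative, with a median of -1.56, and 346 were called. Of the 15 genes with the largest positive differences 10 were called in treated cells too, and of the 15 with the largest negative ones 15. These genes were picked for their size in starved cells. The 5 largest positive ones were at 1.57 (Tiparp), 1.86 (Klf2), 1.83 (Taf1d), 1.79 (Plk2) and 1.18 (Map3k8), each below its value in starved cells. Of the 5 largest negative ones 4 lay further below 0 than in starved cells: H3c14 at -3.54 beside -3.44, Ggh at -3.52 beside -3.36, Apoe at -3.52 beside -2.89 and Ogn at -3.76 beside -2.86. Ndufa3 lay nearer to 0, at -2.77 beside -3.09.

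The difference of the 2 contrasts was called by limma in 0 probe sets, where 201 had an unadjusted p below 0.05 and no adjusted p was under 0.99985. Oxidative phosphorylation had a median of -1.18 in treated cells beside -1.32 in starved ones. Immediate early factors were at 1.30 beside 1.31, and lysosomal genes at -1.12 beside -0.89. Cytokines and growth factors were at 0.74 beside 0.87. A p that misses the threshold does not show that the 2 serum conditions were alike.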

How the data were processed

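The deposited values are 1 signal intensity on a linear scale per Affymetrix probe set and array; how probes were summarised or arrays scaled is not given in the sources used here. Per the labels' protocols, RNA was reverse-transcribed, linearly amplified and labelled with biotin by T7 transcription, and the protocol reads alike for all samples, so that amplified total RNA is known as such from its title. Arrays were quantile normalized over all 23, and log2(intensity + 16) was taken; the pseudocount of 16 puts a signal of 0 at 4. The 66 control probe sets were left out, which leaves 12422. Of these 10833 had 1 gene symbol in the platform's annotation, 396 had several and 1193 are not named here. A gene with several probe sets is given by its brightest over the 7 arrays.

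The contrast was fitted in R 4.3.3 by two-sided moderated tests of limma 3.58.1 (lmFit, eBayes; Benjamini-Hochberg over 12422 probe sets; called at an adjusted p below 0.05). The fit held the 15 arrays of newly transcribed and amplified total RNA in both serum conditions, with 4 group means and no block. It was also run on simulated data with independent noise on each array. Deviations that arrays share were left out there, so that run says nothing about their effect on the calls. The titles call the arrays biological replicates, but do not say what a replicate number shares, so p-values measure the spread between these arrays, whose number limits the precision.

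Named genes are the 15 with the largest positive and the 15 with the largest negative difference among probe sets that were called and whose groups did not overlap, and up to 4 of each of 45 lists with the largest absolute difference. The members and lists were chosen with earlier results of these data known, so their directions are no independent support. Promoter windows, of 250 bases before and 50 after the start, came from RefSeq (GRCm38.p6), 1 a gene. Alternatives tried were other scalings, pseudocounts, a filter on dim probe sets, other samples in the fit, blocks, and each of the 7 arrays left out.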

Additional observations from a re-analysis of the deposited data

Results flagged for a closer look

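Among the 4 newly transcribed arrays, 1 array stood far from the other 3 for 11 of the 153 genes and array measures examined; chance gives about 1 in 20. Array 4 was low for Aurka (6.29, the others 7.55 to 7.58), Clk2 (7.68, the others 8.33 to 8.46), Etfb (6.43, the others 6.77 to 6.84) and Irf9 (9.0, the others 9.45 to 9.52). It was high for Cpq (6.27, the others 5.36 to 5.5) and Uqcrh (8.48, the others 7.2 to 7.28). Array 1 was high for Ggh (6.44, the others 5.45 to 5.54). It was low for Id3 (9.5, the others 11.58 to 11.75), Ndufs3 (7.91, the others 8.17 to 8.22) and Rps7 (7.99, the others 9.08 to 9.28). Array 3 was high for Ccl2 (11.6, the others 11.01 to 11.1). The 3 amplified arrays are too few for such a check.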

How the results depend on the processing

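The 715 called probe sets kept their sign in every alternative that tested them except the values as deposited, where 682 did. These probe sets were called on the same arrays and their groups hardly overlap, so a kept sign is no sign of stability. The filter on dim probe sets tested 660 of them. With the values as deposited the median of all probe sets was 0.346 and limma called 0. Quantile normalization and fit on the 7 starved arrays called 399 (144 higher, 255 lower), a pseudocount of 1 in place of 16 called 401 (144 and 257), and the fit on the 7 arrays 394 (145 and 249). The fit on all 23 arrays called 1174 (550 and 624). A median scaling (657), a pseudocount of 64 (696), the filter on dim probe sets (703 of 6240 tested) and a random block for same-numbered arrays of a kind (744) stayed within 1.5 times. Leaving out 1 array gave 345 to 602 calls, 141 to 255 higher and 204 to 348 lower. Of the 120 called genes named in the report, 53 stayed called whichever array was left out. All 120 kept their sign, which was largely fixed in advance because the groups of nearly all called probe sets do not overlap.

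Deviations of same-numbered newly transcribed and amplified starved arrays correlated at 0.37, 0.68 and -0.39 for numbers 1, 2 and 3. These values do not settle whether the replicate numbers pair the 2 kinds of RNA. With the replicate number as a block 1912 probe sets were called (984 higher, 928 lower), and 0 with that block on the 7 arrays alone, where 2622 had an unadjusted p below 0.05. With the array cluster as a block 2301 were called (1252 and 1049). On the 7 arrays alone, chosen after seeing the data, the cluster block called 1479 (756 and 723), and the 4 arrays of the first cluster alone called 0, with 1545 at an unadjusted p below 0.05. The cause of these changes was not tested. With the values as deposited 6 genes changed sign, none of them called there: Atp5a1 (0.35), Cyc1 (0.84), Ndufa9 (0.016), Sdhb (0.010), Uqcrc1 (0.25) and Uqcrc2 (0.40), against a median of 0.346 for all probe sets. Small values also crossed 0 elsewhere: Atp5a1 was between -0.49 and 0.022 when 1 array was left out, above 0 without amplified arrays 1 (0.0032) or 3, and Cyc1 between -0.52 and 0.23, above 0 without amplified arrays 2 or 3 (0.033). With the replicate block Cyc1 was at 0.0074, and with the 4 arrays of the first cluster Cyc1 was at 0.046 and Sdhd at -0.19.

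The 3 amplified arrays, 1 of them dim, limit what can be called. Among dim probe sets few differences can be seen. Counting only the promoter bases before the start put GGGCGG in 63.5% of higher, 53.4% of lower and 54.8% of all genes, and CACGTG in 10.8%, 8.02% and 8.43%, so that for both motifs lower genes came below all genes. On values as deposited, the 3' minus 5' difference of GAPDH was 1.29 to 2.84 in newly transcribed and 1.29 to 2.26 in amplified total RNA. For actin the means as deposited were 2.26 in newly transcribed and 2.49 in amplified total RNA. That is the reverse order of the quantile-normalized means, 2.57 and 2.33.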
